A study of Mus musculus with 9 samples.

Results

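The T cell receptor complex and its proximal signalling genes were examined as a list of 40 named genes: the invariant CD3 chains, coreceptors and surface receptors, tyrosine kinases and their regulators, adaptors, downstream enzymes, and transcription factors of the T lineage and of this pathway. A member was found where a probe set carried its symbol, or a synonym, as the only gene symbol in the platform annotation. This gave 38 of the 40 members among 19938 genes, and Lck and Tcf7 were not analysed here. Each of the 38 had 1 probe set.

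The study held 3 groups of 3 arrays. All were CD4-enriched cells from the spleen of C57BL/6J mice, cultured for 72 h with beads that carry anti-CD3 and anti-CD28 antibodies, so that every group received a stimulus through the receptor complex described here. The wild-type group had no other treatment. The CD69-/- group came from mice without CD69, a lectin-like membrane protein that activated lymphocytes display early. The CD69-activated group was wild type, and received an anti-CD69 antibody at 24 h and a secondary cross-linking antibody at 48 h, each at a dilution of 1 in 200. The labels name the samples biological replicates without saying which came from separate mice, and the tests rest only on the spread of these arrays, part of which may be technical. No culture with a control antibody is described, and effects of the antibodies themselves cannot be told apart from those of CD69 ligation.

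The receptor complex pairs an antigen-binding receptor with the CD3 and zeta chains, whose cytoplasmic tyrosine motifs are phosphorylated by the kinase LCK. The phosphorylated motifs recruit ZAP70, which phosphorylates the adaptors LAT and SLP-76 (encoded by Lcp2), and the complex that forms there activates phospholipase C gamma 1, calcium and calcineurin signalling to NFAT, RAS through RasGRP1, and NF-kappaB through protein kinase C theta, BCL10 and MALT1. Phosphatases, the kinase CSK and inhibitory adaptors set the threshold of this response. Several of these genes mark T cells among spleen cells, and others are used by B cells, NK cells and myeloid cells as well.

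Values are log2 expression values after RMA (robust multi-array average), a normalization that yields 1 value per probe set. A log2 difference of 1 is a 2-fold change. The array medians lay between 7.40 and 7.56. Cd69, which checks the labels, was at 12.03, 12.12 and 12.37 in the wild-type arrays, 9.65, 9.49 and 9.63 in the CD69-/- arrays and 11.80, 11.84 and 11.74 in the CD69-activated arrays. The difference of CD69-/- from wild type was -2.58 (SE 0.078, adjusted p = 1.22e-08), and no source used here places its probes inside or outside the deleted part. On the Y chromosome, Kdm5d, Eif2s3y and Uty lay between 4.30 and 5.32 in the wild-type and CD69-activated arrays. In the CD69-/- arrays Eif2s3y lay between 9.68 and 9.85, and Xist, expressed by female cells, was at 5.77 to 6.26 there and at 12.48 to 13.01 in the other arrays. Sex and genotype therefore coincide in each comparison with CD69-/- and cannot be told apart, and no member lies on the X or Y chromosome. Genes of other spleen cells were present in every group: the mean log2 level over 13 B cell markers was 12.16 to 12.21 in wild type, 11.65 to 11.73 in CD69-/- and 12.11 to 12.17 in CD69-activated arrays, and the CD8 genes Cd8a and Cd8b1 are given below.

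Most of the 38 genes were higher in CD69-/- than in wild-type cells. With limma's moderated test, adjusted over all 19938 genes and called at an adjusted p under 0.05, 29 members rose, 1 fell and 8 were not called. Over all genes 15.1% were called, of which 8.36% of all genes rose and 6.78% fell. The median log2 difference of the members was 0.36, against -0.0091 over all genes, and their standard errors lay between 0.032 and 0.070. The RNA came from bulk cultures, in which fewer cells of a type and less RNA per cell cannot be told apart. The members that rose did so by 0.12 to 0.62, that is between 1.09-fold and 1.54-fold. After CD69 activation the members were called in both directions, with 8 higher, 7 lower and 23 not called (23.8% of all genes called, 10.1% higher and 13.7% lower) and a median of 0.052. Directly compared with CD69-/- cells, CD69-activated cells had 29 members lower and 2 higher (42.6% of all genes called, 21.0% lower and 21.6% higher), with a median of -0.26 against 0.035 over all genes. Counted by arrays alone, 30 members had all CD69-/- arrays above all wild-type arrays (17.3% of all genes) and 2 had them all below (15.9%). In CD69-activated against wild-type arrays 18 lay above (18.1% of all genes) and 8 below (17.9%). In CD69-activated against CD69-/- arrays 5 lay above (27.3% of all genes) and 30 below (24.2%). The 3 comparisons share arrays in pairs, so their counts are not independent of each other. Without wild-type replicate 2, wild-type replicate 3 or CD69-activated replicate 2, the members higher after CD69 activation numbered 5, and without CD69-/- replicate 2 or 3 or CD69-activated replicate 3 there was 1 member higher in CD69-activated than in CD69-/- cells. Scaling moved the activation counts: centring each array on its median left 4 members higher and made 10 lower, cyclic loess gave 16 and 7, while the CD69-/- counts became 29 higher and 0 lower (30 and 0 at an unadjusted p under 0.05) and 29 higher and 1 lower. Over all genes 55.2% of calls in CD69-/- and 42.5% of calls after CD69 activation were rises, and median centring made these shares 73.5% and 13.9%. In CD69-activated against CD69-/- cells the share went from 50.7% to 14.5% and the median of all genes from 0.035 to -0.092.

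**Figure D1:**
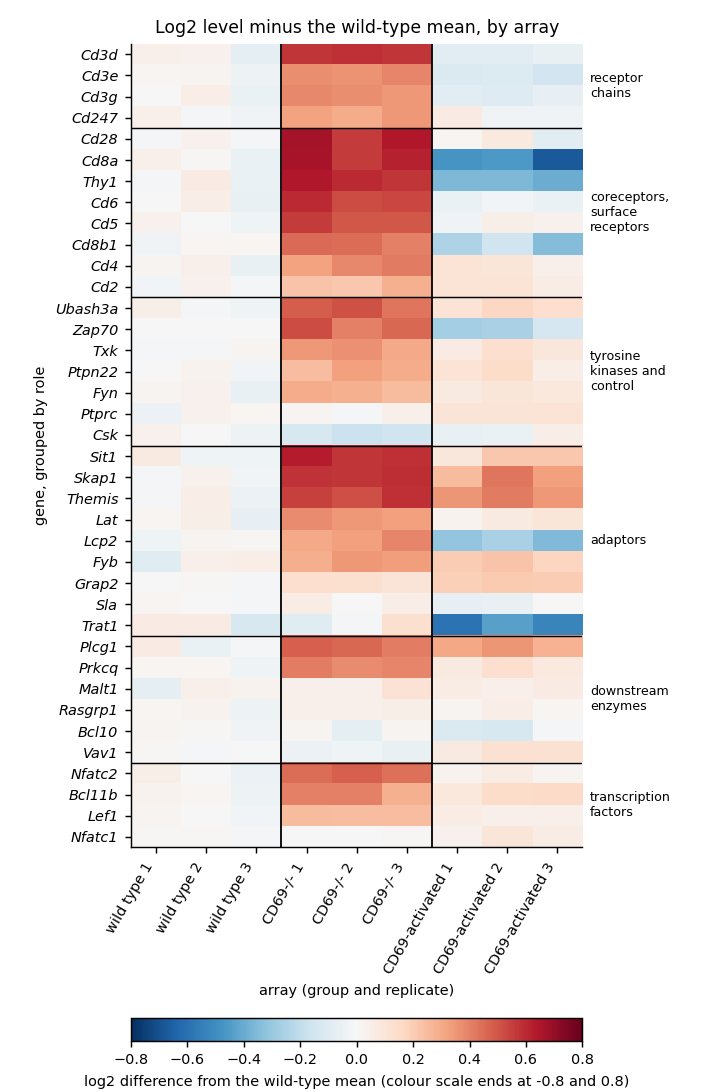
Log2 level of each of the 38 genes in each of the 9 arrays minus the mean of the 3 wild-type arrays, with genes in rows grouped by role and arrays in columns. Red marks a level above and blue a level below the wild-type mean. The CD69-/- columns are red for most genes, and the CD69-activated columns hold both colours, with Cd8a, Trat1, Thy1 and Lcp2 blue and Themis, Skap1 and Plcg1 red.

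The receptor chains were all higher in CD69-/- cells. The sequences upstream of their transcription starts are shown because these 4 genes rose together and Cd3d and Cd3g start only 1355 bases apart on opposite strands, and the sequence upstream of Trat1 is shown beside them because Trat1, an adaptor that associates with the receptor, was the T lineage member that was not called in this comparison. They are the 250 bases before the start in RefSeq's promoter table (build GRCm38.p6), written 5′ to 3′ on the strand of the gene. Capitals mark CTTTGA or its reverse complement TCAAAG, letters bound by the TCF and LEF factors, and TGTGGT or its reverse complement ACCACA, letters bound by RUNX factors. The windows are chr9:44981536-44981785 (plus strand) for Cd3d, chr9:44980432-44980681 (minus) for Cd3g, chr9:45009612-45009861 (minus) for Cd3e, chr1:165788431-165788680 (plus) for Cd247 and chr16:48772063-48772312 (minus) for Trat1.
Cd3d: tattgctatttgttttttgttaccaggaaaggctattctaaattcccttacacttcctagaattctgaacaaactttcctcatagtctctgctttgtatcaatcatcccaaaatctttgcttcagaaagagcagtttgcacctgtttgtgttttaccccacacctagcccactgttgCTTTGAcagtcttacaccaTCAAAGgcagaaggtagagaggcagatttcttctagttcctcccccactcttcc
Cd3g: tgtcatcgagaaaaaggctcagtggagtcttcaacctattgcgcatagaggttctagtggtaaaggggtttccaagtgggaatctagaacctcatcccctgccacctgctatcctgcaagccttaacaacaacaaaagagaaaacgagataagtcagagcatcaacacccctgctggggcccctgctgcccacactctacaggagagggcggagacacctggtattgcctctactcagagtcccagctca
Cd3e: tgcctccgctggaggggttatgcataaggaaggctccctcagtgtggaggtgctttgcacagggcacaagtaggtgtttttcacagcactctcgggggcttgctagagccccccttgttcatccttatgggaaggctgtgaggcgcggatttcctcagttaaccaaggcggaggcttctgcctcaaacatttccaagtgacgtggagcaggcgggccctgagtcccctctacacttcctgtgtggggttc
Cd247: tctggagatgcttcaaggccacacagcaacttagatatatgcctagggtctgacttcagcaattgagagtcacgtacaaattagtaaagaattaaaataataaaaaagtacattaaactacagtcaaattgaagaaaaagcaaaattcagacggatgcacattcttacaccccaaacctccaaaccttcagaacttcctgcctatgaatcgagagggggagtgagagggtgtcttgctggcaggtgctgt
Trat1: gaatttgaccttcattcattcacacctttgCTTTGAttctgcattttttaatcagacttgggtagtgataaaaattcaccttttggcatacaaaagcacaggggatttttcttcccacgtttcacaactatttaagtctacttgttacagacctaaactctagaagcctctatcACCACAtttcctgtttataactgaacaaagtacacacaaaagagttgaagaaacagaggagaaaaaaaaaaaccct
The Cd3d window held CTTTGA or its complement at 2 places, beginning 73 and 54 bases before the start, and the windows of Cd3e, Cd3g and Cd247 held neither pair of letters. The Trat1 window held 1 of each kind. The table gave 39 windows for 28 of the 38 members, since a gene can have several starts. Of these, 10 windows held CTTTGA or TCAAAG (25.6%, against 13.8% of all 32851 windows of this length), and 4 held TGTGGT or ACCACA (10.3%, against 14%). Also searched were GGAA or TTCC, letters bound by ETS factors, and CAGCTG, a form of the E-box. The first was held by 36 windows (92.3%, against 93.4%) and the second by 3 (7.69%, against 13%). GGAA and TTCC are not marked in capitals, and none of the windows shown held CAGCTG. Windows of 1 gene can overlap, and a match of these letters is a description only.

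Cd3d, the delta chain, had log2 levels of 10.86, 10.85 and 10.74 in the wild-type arrays, 11.39, 11.40 and 11.39 in the CD69-/- arrays and 10.74, 10.74 and 10.76 in the CD69-activated arrays. Its CD69-/- arrays lay above all others, and it rose 1.49-fold (log2 difference 0.58, SE 0.039, adjusted p = 3.68e-06). The wild-type and CD69-activated arrays overlapped. Cd3e, the epsilon chain, was at 12.52, 12.52 and 12.46 in the wild-type arrays, 12.87, 12.86 and 12.89 in the CD69-/- arrays and 12.38, 12.39 and 12.35 in the CD69-activated arrays, with the 3 groups apart from each other. It rose by 0.37 in CD69-/- (adjusted p = 2.54e-05) and fell by 0.13 after CD69 activation (adjusted p = 0.0214), a call that was lost without wild-type replicate 1 or 2 or CD69-activated replicate 3. Cd3g, the gamma chain, was at 12.59, 12.64 and 12.54 in the wild-type arrays, 12.97, 12.96 and 12.93 in the CD69-/- arrays and 12.50, 12.48 and 12.52 in the CD69-activated arrays and rose by 0.37 in CD69-/- (adjusted p = 5.24e-05). After CD69 activation it differed by -0.088, uncalled in limma (adjusted p = 0.116), with the CD69-activated arrays below all wild-type arrays. Median centring called Cd3g (-0.17) and Cd3d (-0.16) lower there, and an intensity trend with a robust prior called Cd3g. Cyclic loess called neither. Cd247, which encodes the zeta chain with its repeated tyrosine motifs, was at 10.53, 10.48 and 10.47 in the wild-type arrays, 10.81, 10.79 and 10.84 in the CD69-/- arrays and 10.56, 10.46 and 10.46 in the CD69-activated arrays. It rose by 0.32 (adjusted p = 0.000202), and its difference after CD69 activation was 0.0024 (95% confidence interval -0.085 to 0.090). In CD69-activated against CD69-/- cells the 4 chains fell by 0.32 to 0.65.

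All 8 coreceptors and surface receptors rose in CD69-/- cells, with a median of 0.53. Cd28, the costimulatory receptor bound by the beads, was at 11.41, 11.46 and 11.41 in the wild-type arrays, 12.09, 11.98 and 12.07 in the CD69-/- arrays and 11.44, 11.51 and 11.34 in the CD69-activated arrays. The CD69-/- arrays stood apart and the other groups overlapped, and the rise was 1.54-fold (log2 difference 0.62, SE 0.048, adjusted p = 8.05e-06), with a difference after CD69 activation of 0.0031 (-0.10 to 0.11). Thy1, a glycolipid-anchored protein of mouse T cells, was at 11.63, 11.70 and 11.59 in the wild-type arrays, 12.28, 12.24 and 12.21 in the CD69-/- arrays and 11.28, 11.28 and 11.25 in the CD69-activated arrays. Its 3 groups did not overlap, as it rose by 0.60 in CD69-/- (adjusted p = 3.05e-06) and fell by 0.37 after CD69 activation (adjusted p = 7.00e-05). Cd8a and Cd8b1, the chains of the CD8 coreceptor of cytotoxic T cells, moved the same way. Cd8a was at 11.30, 11.27 and 11.21 in the wild-type arrays, 11.92, 11.82 and 11.88 in the CD69-/- arrays and 10.79, 10.80 and 10.59 in the CD69-activated arrays, with a rise of 0.61 (adjusted p = 2.97e-05) and a fall of 0.54 (adjusted p = 7.55e-05), and with 2.21-fold lower levels in CD69-activated than in CD69-/- cells it had the largest difference of any member between those groups. Cd8b1 was at 12.37, 12.42 and 12.41 in the wild-type arrays, 12.85, 12.85 and 12.80 in the CD69-/- arrays and 12.15, 12.24 and 12.05 in the CD69-activated arrays, rising by 0.43 and falling by 0.25 (adjusted p = 0.00293).

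Cd4, the coreceptor by which the cells were enriched, was at 12.01, 12.02 and 11.92 in the wild-type arrays, 12.31, 12.36 and 12.39 in the CD69-/- arrays and 12.09, 12.08 and 12.02 in the CD69-activated arrays. It rose by 0.37 in CD69-/- (adjusted p = 0.000103). Its difference after CD69 activation, 0.082, was not called (adjusted p = 0.190), although the groups did not overlap, while Cd8a and Cd8b1 fell there. Cd5 and Cd6, related scavenger receptor family proteins that dampen receptor signals, rose by 0.52 and 0.55 in CD69-/-. Cd5 was at 12.15, 12.12 and 12.08 in the wild-type arrays, 12.68, 12.61 and 12.61 in the CD69-/- arrays and 12.09, 12.17 and 12.15 in the CD69-activated arrays. Their differences after CD69 activation were 0.017 (-0.067 to 0.10) and -0.042 (-0.13 to 0.046). Cd2, an adhesion receptor that binds CD48 in mice and is also found on B cells, rose least of these, by 0.24 (adjusted p = 0.000803).

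Among the tyrosine kinases and their regulators, 5 of 7 rose in CD69-/- cells, 1 fell and 1 was not called. Zap70, the kinase recruited to the phosphorylated chains, was at 10.41, 10.41 and 10.41 in the wild-type arrays, 10.93, 10.81 and 10.87 in the CD69-/- arrays and 10.14, 10.16 and 10.28 in the CD69-activated arrays. It rose by 0.46 in CD69-/- (adjusted p = 4.46e-05) and fell by 0.22 after CD69 activation (adjusted p = 0.00482), without overlap between the groups. Ubash3a, a negative regulator that binds ubiquitin and kinases of the receptor pathway, was at 11.11, 11.05 and 11.03 in the wild-type arrays, 11.55, 11.58 and 11.50 in the CD69-/- arrays and 11.17, 11.23 and 11.20 in the CD69-activated arrays, and rose by 0.47 in CD69-/- (adjusted p = 1.10e-05) and by 0.14 after CD69 activation (adjusted p = 0.0244). The latter call was lost with the arrays centred on their medians and without wild-type replicate 2 or 3 or CD69-activated replicate 2. Txk, a TEC family kinase, Ptpn22, a phosphatase that opposes LCK and ZAP70, and the SRC family kinase Fyn rose in CD69-/- by 0.34, 0.29 and 0.28. After CD69 activation they differed by 0.096, 0.10 and 0.083, uncalled, though the CD69-activated arrays lay above the wild-type arrays for each. Cyclic loess called all of them higher, and median centring did not.

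Ptprc and Csk, both used widely among leukocytes, did not rise in CD69-/- cells. Ptprc, which encodes the phosphatase CD45, was at 13.04, 13.12 and 13.10 in the wild-type arrays, 13.11, 13.07 and 13.13 in the CD69-/- arrays and 13.19, 13.19 and 13.20 in the CD69-activated arrays, and its CD69-/- and wild-type arrays overlapped, with a difference of 0.016 (-0.063 to 0.096). Csk, the kinase that places the inhibitory phosphate on LCK, was at 12.07, 12.03 and 11.99 in the wild-type arrays, 11.90, 11.85 and 11.87 in the CD69-/- arrays and 11.97, 11.98 and 12.08 in the CD69-activated arrays. It was the member that fell in CD69-/-, by 0.15 (adjusted p = 0.0283), a call lost with median centring and without any one of wild-type replicates 1 and 2 and the 3 CD69-/- replicates. Under those settings limma called 0 members lower, with 1 at an unadjusted p under 0.05 where a replicate was left out and 0 after median centring.

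Of the 9 adaptors 7 rose in CD69-/- cells and 2 were not called. After CD69 activation 5 rose, 2 fell and 2 were not called. Themis, a T lineage adaptor bound to GRB2 that tunes receptor signals in the thymus, was at 10.06, 10.12 and 10.03 in the wild-type arrays, 10.61, 10.59 and 10.65 in the CD69-/- arrays and 10.43, 10.49 and 10.42 in the CD69-activated arrays, rising 1.46-fold in CD69-/- (log2 difference 0.55, SE 0.040, adjusted p = 5.55e-06) and 1.30-fold after CD69 activation (log2 difference 0.37, SE 0.040, adjusted p = 7.00e-05). Skap1, which links the receptor to integrin adhesion, was at 10.12, 10.17 and 10.11 in the wild-type arrays, 10.71, 10.71 and 10.72 in the CD69-/- arrays and 10.39, 10.56 and 10.46 in the CD69-activated arrays and rose by 0.58 in CD69-/- (adjusted p = 8.06e-06) and by 0.34 after CD69 activation (adjusted p = 0.000307). For both genes the wild-type arrays were lowest, the CD69-activated arrays in between and the CD69-/- arrays highest, with no overlap. Fyb, the ADAP partner of SKAP1, rose by 0.32 (adjusted p = 0.000489) and 0.20 (adjusted p = 0.00769), and Sit1, an inhibitory transmembrane adaptor, by 0.59 (adjusted p = 8.95e-06) and 0.17 (adjusted p = 0.0209). Median centring removed the activation calls of Fyb and Sit1, and that of Sit1 was also lost without wild-type replicate 2 or 3 or CD69-activated replicate 2 or 3.

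Lcp2, which encodes SLP-76, went in opposite directions from wild type. Its levels were 12.13, 12.19 and 12.17 in the wild-type arrays, 12.47, 12.49 and 12.55 in the CD69-/- arrays and 11.85, 11.90 and 11.81 in the CD69-activated arrays, without overlap. It rose by 0.34 in CD69-/- (adjusted p = 0.000130) and fell by 0.31 after CD69 activation (adjusted p = 0.000227). Its partner Grap2, the GADS adaptor that joins SLP-76 to LAT, was at 12.12, 12.13 and 12.11 in the wild-type arrays, 12.26, 12.25 and 12.23 in the CD69-/- arrays and 12.31, 12.33 and 12.32 in the CD69-activated arrays. It was higher than wild type in both groups, by 0.12 in CD69-/- (adjusted p = 0.0226) and 0.20 after CD69 activation (adjusted p = 0.000937). The first of these calls was lost without any one of the 3 wild-type replicates or CD69-/- replicate 1 or 2. Lat, the membrane scaffold, rose by 0.35 in CD69-/- (adjusted p = 0.000117) and differed by 0.065 after CD69 activation (-0.023 to 0.15).

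Trat1, encoding the receptor-associated adaptor TRIM, stood apart from the other T lineage members. Its levels were 8.83, 8.83 and 8.63 in the wild-type arrays, 8.67, 8.75 and 8.90 in the CD69-/- arrays and 8.18, 8.33 and 8.23 in the CD69-activated arrays. The wild-type and CD69-/- arrays overlapped and differed by 0.0069 (-0.15 to 0.16), while CD69-activated cells had 1.43-fold lower levels than wild type (log2 difference -0.52, SE 0.070, adjusted p = 0.000352) and lay below every other array. Its SDs of 0.11, 0.12 and 0.078 in wild type, CD69-/- and CD69-activated arrays were wide beside the median SDs of the members, which were 0.037, 0.030 and 0.035. Sla, the SLAP adaptor that promotes the removal of receptor chains, was not called in either comparison with wild type, at 0.039 (-0.039 to 0.12) and -0.043 (-0.12 to 0.034). Sla lies inside the thyroglobulin gene Tg in RefSeq's table, and Cd247, Ubash3a and Plcg1 overlap the genes Pou2f1, Rsph1 and Zhx3, with probe positions not used here.

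**Figure D2:**
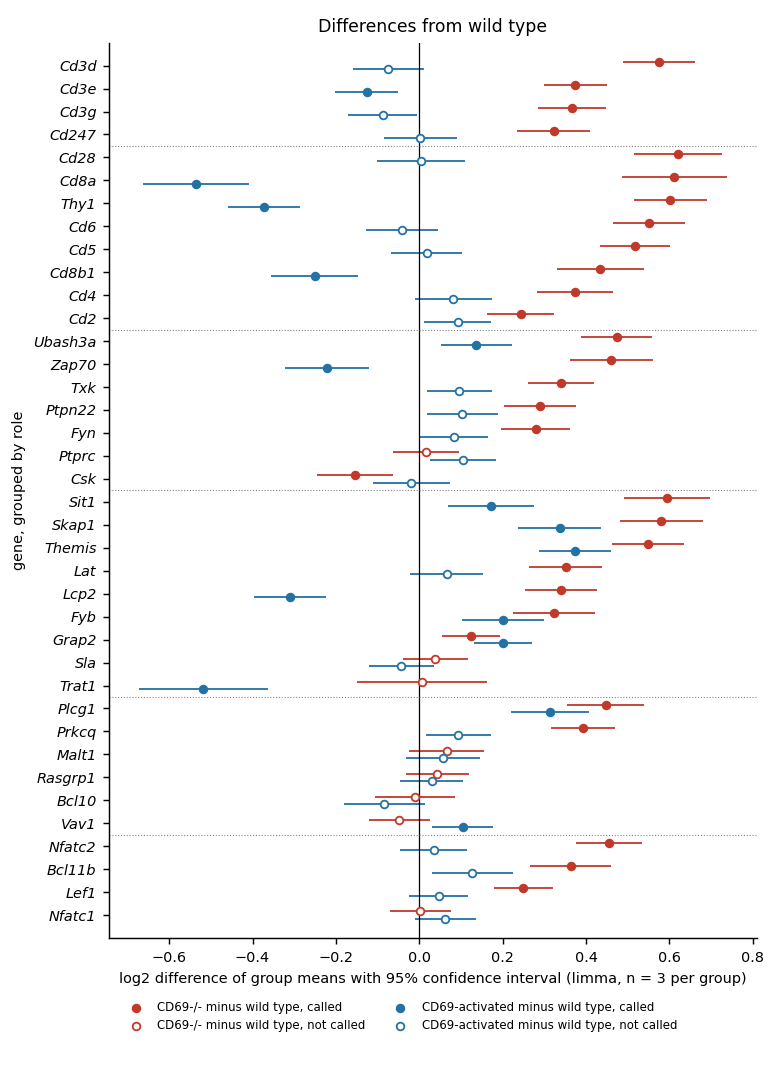
Log2 difference of each gene from wild type in CD69-/- cells (red) and CD69-activated cells (blue), with 95% confidence intervals from limma over 3 arrays a group. Filled points are called at an adjusted p under 0.05 and open points are not, and both colours use the same wild-type arrays. Red points lie between -0.15 and 0.62 with 29 called above 0, and blue points lie between -0.54 and 0.37.

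Of the 6 enzymes and exchange factors downstream of the adaptors, 2 rose in CD69-/- cells and 4 were not called, with a median of 0.054. Plcg1, the phospholipase that generates the calcium signal, was at 11.22, 11.10 and 11.14 in the wild-type arrays, 11.63, 11.61 and 11.56 in the CD69-/- arrays and 11.46, 11.51 and 11.43 in the CD69-activated arrays, rising by 0.45 in CD69-/- (adjusted p = 3.02e-05) and 0.31 after CD69 activation (adjusted p = 0.000322). Prkcq, encoding the T cell isoform protein kinase C theta, was at 11.71, 11.71 and 11.66 in the wild-type arrays, 12.11, 12.07 and 12.09 in the CD69-/- arrays and 11.77, 11.83 and 11.77 in the CD69-activated arrays and rose by 0.39 in CD69-/- (adjusted p = 2.25e-05). The genes that carry its signal to NF-kappaB in many leukocytes were not called in CD69-/-: Malt1 differed by 0.065 (-0.024 to 0.15) and Bcl10 by -0.0099 (-0.11 to 0.087). Rasgrp1, the exchange factor for RAS, was at 12.32, 12.33 and 12.27 in the wild-type arrays, 12.35, 12.35 and 12.36 in the CD69-/- arrays and 12.33, 12.36 and 12.32 in the CD69-activated arrays, with a difference of 0.043 in CD69-/- (-0.032 to 0.12). Vav1, the exchange factor for RAC, differed by -0.048 in CD69-/- (-0.12 to 0.025) and rose by 0.10 after CD69 activation (adjusted p = 0.0418), a call that 11 of the 16 other settings did not keep, among them leaving out any one array other than CD69-activated replicate 1. The intervals of Malt1, Bcl10, Rasgrp1 and Vav1 in CD69-/- reached at most 0.15, and the rises of Plcg1 and Prkcq were larger than that.

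Of the 4 measured transcription factors, 3 rose in CD69-/- cells and none was called after CD69 activation, where limma had 1 at an unadjusted p under 0.05. Nfatc2, which encodes the NFAT1 protein present before stimulation, was at 9.91, 9.87 and 9.82 in the wild-type arrays, 10.31, 10.35 and 10.31 in the CD69-/- arrays and 9.89, 9.92 and 9.89 in the CD69-activated arrays. It rose 1.37-fold in CD69-/- (log2 difference 0.46, SE 0.036, adjusted p = 9.44e-06), and the other 2 groups overlapped. Nfatc1, encoding the NFAT2 protein that is induced by stimulation, was at 11.22, 11.21 and 11.19 in the wild-type arrays, 11.20, 11.21 and 11.22 in the CD69-/- arrays and 11.24, 11.30 and 11.27 in the CD69-activated arrays, with a difference of 0.0022 (-0.071 to 0.076). The interval of Nfatc1 did not reach that of Nfatc2, 0.38 to 0.54. Bcl11b, a factor of T lineage commitment, rose by 0.36 (adjusted p = 0.000182) and Lef1, a factor of naive and developing T cells, by 0.25 (adjusted p = 0.000267).

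**Figure D3:**
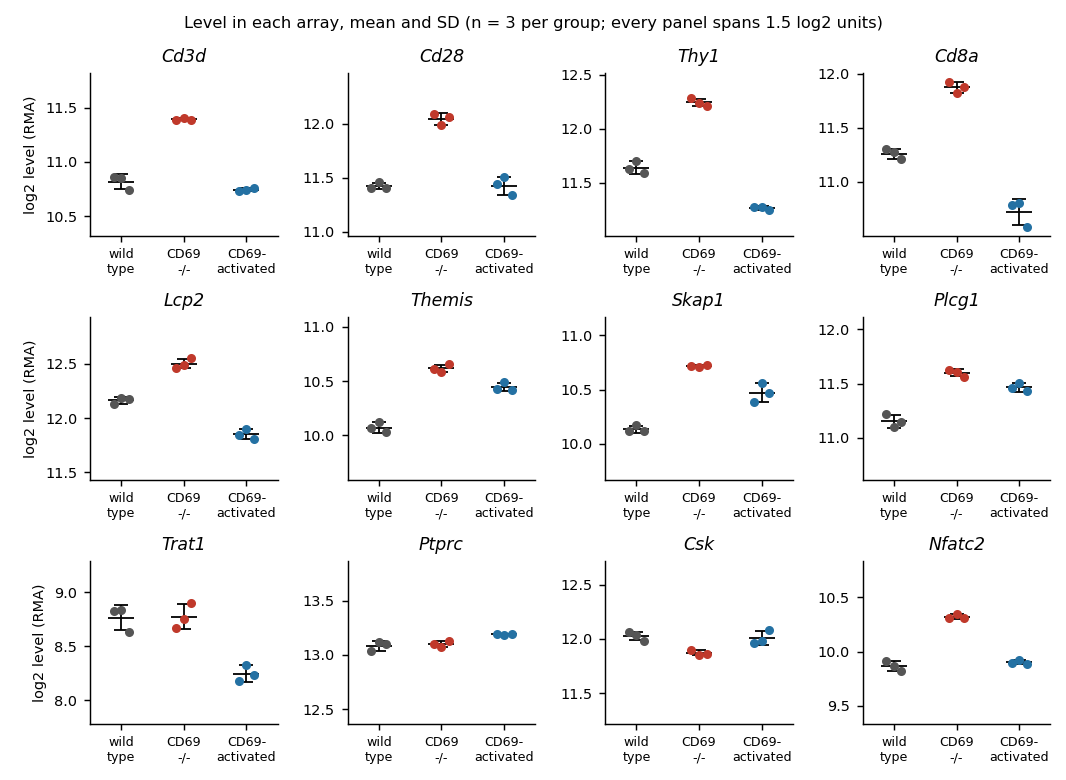
Log2 RMA level of 12 members in each array (points) with the mean and SD of each group of 3 (black), where every panel spans 1.5 log2 units. Themis, Skap1 and Plcg1 have CD69-activated arrays between wild type and CD69-/-, Thy1, Cd8a and Lcp2 have them below wild type, and Trat1 is low in the CD69-activated arrays alone.

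Read across the 3 comparisons, the calls placed the members in a few patterns. The most frequent, 16 of 38 members against 3.81% of all genes, was a rise in CD69-/-, no call after CD69 activation and lower levels in CD69-activated than in CD69-/- cells. It held Cd3d, Cd3g, Cd247, Cd4, Cd2, Cd5, Cd6, Cd28, Fyn, Txk, Ptpn22, Lat, Prkcq, Bcl11b, Lef1 and Nfatc2. In 6 members, against 2.95% of all genes, the rise in CD69-/- came with a fall after CD69 activation: Cd3e, Cd8a, Cd8b1, Thy1, Zap70 and Lcp2. Another 6, against 0.246% of all genes, were higher than wild type in both groups and higher in CD69-/- than in CD69-activated cells: Ubash3a, Fyb, Skap1, Themis, Sit1 and Plcg1. Of these, Ubash3a, Fyb and Sit1 lost their activation calls under some settings, as did Cd3e of the pattern before. Fyb, Themis and Plcg1 were no longer called lower in CD69-activated than in CD69-/- cells after cyclic loess. That call of Fyb was also lost without wild-type replicate 2 or any one CD69-/- or CD69-activated replicate, where its difference lay between -0.14 and -0.11, and that of Plcg1 without CD69-/- replicate 1 or 2 or CD69-activated replicate 1 or 3, at -0.13 to -0.12. No call was made in any comparison for Ptprc, Sla, Rasgrp1, Malt1, Bcl10 and Nfatc1, a pattern that 53.3% of all genes shared. Other settings did call them in CD69-activated against CD69-/- cells. Median centring called Sla (-0.21), Bcl10 (-0.20), Rasgrp1 (-0.14) and Malt1 (-0.14) lower there, and cyclic loess called Ptprc (0.12) and Nfatc1 (0.13) higher. Against wild type, median centring called Bcl10 lower (-0.17) and cyclic loess called Nfatc1 higher (0.10) after CD69 activation. Trat1, Vav1, Csk and Grap2 each had a pattern of their own among the members. The 2 members higher in CD69-activated than in CD69-/- cells were Vav1 (0.15) and Csk (0.14). Median centring removed both calls, and that of Csk was lost without CD69-/- replicate 2 or 3 or CD69-activated replicate 3, at 0.099 to 0.13.

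The members were also divided into those known mainly from the T lineage and those used by several leukocyte lineages. The division is background knowledge and was drawn up with earlier results of these data known. Over all genes 8.36% rose and 6.78% fell in CD69-/-. Of 21 T lineage members 20 rose in CD69-/- and Trat1 was not called, with a median of 0.43. Of 17 members of several lineages 9 rose, 1 fell and 7 were not called, with a median of 0.12. Of 6 T cell markers outside the list, all 6 were higher (median 0.42), among them Cd40lg at 0.57 and Icos at 0.56. Of the B cell markers 13 of 13 were lower (median -0.47), led by Fcer2a at -0.97 and Siglecg at -0.71. Of 13 myeloid markers, which cover dendritic cells, monocytes and macrophages, 9 were lower and 4 not called (median -0.47), with Adgre1 at -1.86 and Clec7a at -1.19, and their mean log2 level was 8.02 to 8.06 in wild type, 7.45 to 7.55 in CD69-/- and 8.10 to 8.13 in CD69-activated arrays. NK cell markers had 4 of 8 lower and 1 higher, with Klri2 at -0.86 and Prf1 at 0.53. Klri2 averaged 5.52 in wild type and 4.67 in CD69-/-, and Klrb1c, also lower, averaged 5.49 and 5.07. The uncalled Klre1 averaged 4.91 and 4.85. Such levels lay in or close to the 4.30 to 5.32 of Kdm5d, Eif2s3y and Uty in the wild-type and CD69-activated arrays. Effects of the deletion on genes near Cd69 were not tested for any marker. Dividing cell markers had 1 of 9 higher, Mcm5 at 0.18, with Cdk1 at -0.16 and not called. Erythroid markers had 3 of 5 lower, led by Car1 at -2.35 and Alas2 at -0.84, neutrophil and mast cell markers 1 of 9 (Retnlg at -0.40, with Ly6g at 0.15 and not called) and gamma-delta T cell markers 1 of 3 (Blk, also a B cell gene, at -0.52, with Sox13 at -0.057 and not called). The values have no zero, so that no marker can be called absent. The part of these cell type markers in the rise of the members was not tested.

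After CD69 activation the same division gave 3 higher and 6 lower of 21 T lineage members (median 0.0031) and 5 higher and 1 lower of 17 members of several lineages (median 0.083). Over all genes 10.1% rose and 13.7% fell. Of the 13 B cell markers, 2 rose and 2 fell (median -0.039), with Cd72 at 0.21 and Fcer2a at -0.41, and the 6 other T cell markers 1 higher and 1 lower (median -0.025), with Gata3 at -0.33 and Cd40lg at 0.16. Myeloid markers had 4 of 13 higher and 3 lower, with Adgre1 at 0.85 and Cd14 at 0.46. Erythroid markers had 1 of 5 higher and 1 lower (Alas2 at 0.33, Car1 at -1.88), neutrophil and mast cell markers 1 of 9 lower (Cpa3 at -1.02, with S100a8 at 0.15 and not called), and gamma-delta T cell markers 1 of 3 higher (Blk at 0.55, with Sox13 at 0.085 and not called). NK cell markers had 6 of 8 lower (median -0.59), with Gzma at -1.63 and Eomes at -1.06. The other 2, Klre1 at -0.076 and S1pr5 at 0.0086, were not called. The mean log2 level of these 8 markers was 7.42 to 7.51 in wild type, 7.29 to 7.32 in CD69-/- and 6.79 to 6.86 in CD69-activated arrays. Which cells the RNA of these markers came from was not tested in any comparison. Markers of dividing cells fell in 9 of 9 cases (median -1.18), led by Rrm2 at -1.35 and Kif11 at -1.25, and their mean level was 8.84 to 8.87 in CD69-activated arrays against 9.84 to 9.92 in wild type and 9.86 to 9.93 in CD69-/-. The part of these markers in the falls of Cd8a, Cd8b1, Thy1, Zap70, Lcp2 and Trat1 was not tested.

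In CD69-activated against CD69-/- cells 21 of 21 T lineage members were lower (median -0.45), and of the 17 members of several lineages 8 were lower and 2 higher (median -0.082). Over all genes 21.0% were lower and 21.6% higher. Of the 6 other T cell markers 5 were lower (median -0.46), with Gata3 at -0.74 and Il7r at -0.54. B cell markers were higher in 13 of 13 cases (median 0.42), with Siglecg at 0.75 and Cd72 at 0.70. Of the 13 myeloid markers 9 were higher and 1 lower (median 0.57), with Adgre1 at 2.71 and Lyz2 at 1.11. Dividing cell markers were lower in 9 of 9 cases (median -1.18), with Rrm2 at -1.43 and Kif11 at -1.36, and NK cell markers had 4 of 8 lower and 1 higher, with Gzma at -1.88 and Prf1 at -1.33. Of the 5 erythroid markers 4 were higher (Alas2 at 1.17, Slc4a1 at 0.92), of the 9 neutrophil and mast cell markers 3 were higher and 2 lower (Cpa3 at -1.01, Retnlg at 0.28), and of the 3 gamma-delta T cell markers 1 was higher (Blk at 1.07, with Sox13 at 0.14 and not called). The part of these markers in the lower levels of the members was not tested.

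**Figure D4:**
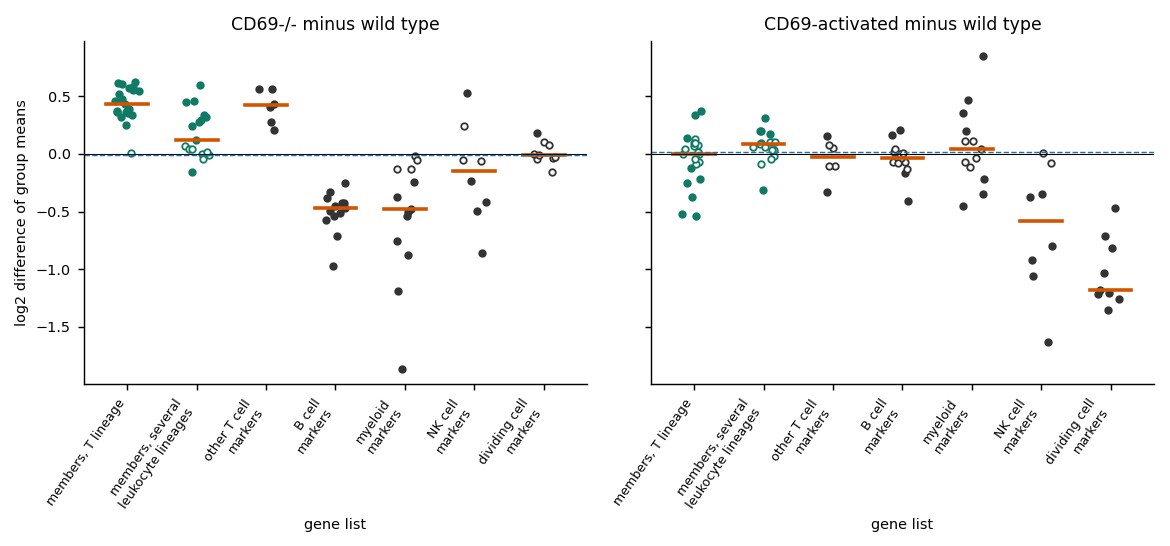
Log2 difference from wild type for the members, divided by breadth of expression (green), and for marker lists of other cell types (black), in CD69-/- cells (left) and CD69-activated cells (right). Filled points are called, open points are not, the orange bars are list medians and the dashed line is the median of all 19938 genes. In CD69-/- the T lineage members have a median of 0.43 and the B cell markers one of -0.47, and after CD69 activation the dividing cell markers have a median of -1.18.

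Levels were also expressed within each array relative to the mean of the 4 chains Cd3d, Cd3e, Cd3g and Cd247, as a description with no test. That mean was 11.624, 11.625 and 11.552 for wild type, 12.013, 12.003 and 12.015 for CD69-/-, and 11.544, 11.519 and 11.524 for the CD69-activated arrays. The 4 chains balance around 0 by construction, and counts are given for the other 34 members. Since the chain mean itself was higher in CD69-/- arrays, a gene with an unchanged level becomes lower there in relative level. It likewise becomes higher in CD69-activated against CD69-/- arrays. The chain mean was also lower in each CD69-activated array than in each wild-type array, by less. An unchanged gene therefore becomes somewhat higher in CD69-activated against wild-type arrays as well. Cd5, Lat, Rasgrp1, Malt1 and Nfatc2 overlapped between those groups in level, yet lay above wild type in relative level. In these relative levels, 9 of 34 members had all CD69-/- arrays above all wild-type arrays (0.687% of all genes) and 15 had them all below (96.8% of all genes). The CD69-/- minus wild-type difference of relative levels was 0.21 for Cd28, 0.20 for Cd8a, 0.19 for Thy1, 0.18 for Sit1 and 0.17 for Skap1. It was -0.56 for Csk, -0.46 for Vav1, -0.42 for Bcl10, -0.41 for Nfatc1 and -0.40 for Trat1. For Trat1 the CD69-activated minus wild-type difference was -0.45. In CD69-activated against wild-type arrays 23 of the 34 lay above (44.5% of all genes) and 6 below (10.9% of all genes). By that difference Themis was at 0.44, Skap1 at 0.41 and Plcg1 at 0.39, and Cd8a was at -0.46. In CD69-activated against CD69-/- arrays 24 of the 34 lay above (91.6% of all genes) and 6 below (2.25% of all genes).

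Other genes of the receptor pathway were counted together and for 5 of their branches. Of 60 measured, 12 rose and 7 fell in CD69-/- (median 0.034), where 8.36% of all genes rose and 6.78% fell. After CD69 activation 11 rose and 9 fell (median 0.010), where 10.1% of all genes rose and 13.7% fell. Kinases, adaptors and scaffolds had 4 of 12 higher and 2 lower in CD69-/-, and negative regulators 5 of 17 higher and 3 lower. In the calcium and calcineurin branch 2 of 13 rose and 1 fell. In the RAS and MAP kinase branch 1 of 5 rose, and in the PI3 kinase branch 1 of 7 fell. The largest rises in CD69-/- were those of Cd226, a costimulatory receptor (0.58, adjusted p = 0.000384), Sh2d1a, the SLAM receptor adaptor SAP (0.55, adjusted p = 0.000419), and Sla2, an adaptor related to Sla (0.54, adjusted p = 1.68e-06). The largest falls were those of Ppp3ca, a catalytic subunit of calcineurin (-0.46, adjusted p = 6.83e-06), the kinase Tec (-0.38, adjusted p = 2.81e-05) and the kinase Map4k1 (-0.26, adjusted p = 0.00112).

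After CD69 activation the branches were again mixed. Kinases, adaptors and scaffolds had 1 higher and 2 lower, the calcium branch 3 higher, the RAS branch 2 lower, the PI3 kinase branch 2 higher and 2 lower, and the negative regulators 3 higher and 3 lower. Itpr2, a calcium release channel, rose by 0.40, Tec by 0.32 and Carmil2, a CD28 signalling scaffold, by 0.30. Ptpn2, a phosphatase of SRC and Janus kinases, was at -0.33, Ubash3b at -0.22 and Nras at -0.18. Directly compared, Tec was 0.71 higher and Ppp3ca 0.45 higher in CD69-activated than in CD69-/- cells (adjusted p = 1.13e-07 and 2.30e-06), and Itpr2 was 0.43 higher. Ubash3b (-0.57), Cd226 (-0.56) and Ptpn2 (-0.51) were lower there. In that comparison 14 of the 60 rose and 18 fell, where 21.6% of all genes rose and 21.0% fell.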

How the data were processed

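RNA of 9 samples was hybridised to Affymetrix whole-transcript arrays, 1 sample an array. The deposited values are log2 expression values that the authors computed with RMA in the oligo package under R 2.12.1, per the submitters' processing notes; no raw intensities were used here, so the number of arrays, and not a read depth, limits the precision. Of 35556 probe sets 21789 had 1 gene symbol, 1621 several and 12146 none in the platform annotation. Symbols were updated through gene IDs matched to RefSeq (21698 matched), and the brightest probe set by its mean over the 9 arrays stood for each of 19938 genes.

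Group means were fitted with limma 3.58.1 (R 4.3.3) to all 9 arrays, with 6 residual and 4.78 prior degrees of freedom, empirical Bayes without a trend, two-sided tests and Benjamini-Hochberg adjustment over all genes. A gene was called at an adjusted p under 0.05, and confidence intervals are 95%. On simulated data limma called 30 of 50 genes changed 1.2-fold and 50 of 50 changed 1.5-fold, in 3 against 3 arrays. The simulation changed 200 genes and used independent normal noise. Its rates need not hold for the comparisons here, in which 15.1% to 42.6% of all genes were called.

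All members were described. Of 69 other pathway genes 60 were measured, and the 3 largest called rises and falls in each comparison were named; the counts of 1 branch are not reported here. Of the 8 marker lists, the 2 genes with the largest change were named in each comparison. Members and lists were chosen with earlier results of these data known. Median centring, cyclic loess, removal of the dimmest 25% of genes, mean probe sets, fits of the compared arrays only, an intensity trend with a robust prior, a replicate block and leaving out each array were tried.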

Additional observations from a re-analysis of the deposited data

How the results depend on the processing

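Across 16 other settings, 28 of the 30 members called in CD69-/- against wild type stayed called in the same direction (28 higher), as did 10 of 15 in CD69-activated against wild type (4 higher, 6 lower) and 26 of 31 in CD69-activated against CD69-/- (26 lower). Some settings also called members that were uncalled before. In CD69-activated against wild type these were 11: Bcl10, Bcl11b, Cd2, Cd3d, Cd3g, Fyn, Nfatc1, Prkcq, Ptpn22, Ptprc and Txk. In CD69-activated against CD69-/- they were 7: Bcl10, Grap2, Malt1, Nfatc1, Ptprc, Rasgrp1 and Sla. In CD69-/- against wild type there were 0. For each change above and below the cause was not tested. Members called lower in CD69-/- numbered 0 after median centring (0 at an unadjusted p under 0.05 with limma) and 0 to 1 without a replicate. Members called higher after CD69 activation numbered 4 after median centring, 16 after cyclic loess, 13 with an intensity trend and robust prior, and 5 to 9 without a replicate. Members called higher in CD69-activated than in CD69-/- cells numbered 0 after median centring (0 at an unadjusted p under 0.05), 5 after cyclic loess, 4 with the trend, and 1 to 2 without a replicate.

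Signs turned for differences near 0. Median centring gave Bcl10 0.036 in CD69-/- against wild type. After CD69 activation it gave Cd247 -0.079, Cd28 -0.078, Cd5 -0.064, Rasgrp1 -0.052, Nfatc2 -0.047, Lef1 -0.035, Malt1 -0.024, Nfatc1 -0.019 and Lat -0.016. In CD69-activated against CD69-/- cells it gave Nfatc1 -0.067, Grap2 -0.049 and Ptprc -0.038. Cyclic loess gave Nfatc1 -0.029 and Trat1 -0.014 in CD69-/-, Csk 0.017 after CD69 activation, and Malt1 0.059 and Rasgrp1 0.036 in CD69-activated against CD69-/- cells. Without a replicate, the CD69-/- difference ranged from -0.0086 to 0.034 for Ptprc, from -0.026 to 0.021 for Bcl10, from -0.058 to 0.060 for Trat1 and from -0.0063 to 0.0069 for Nfatc1. The activation difference ranged from -0.036 to 0.047 for Cd28, from -0.029 to 0.022 for Cd247 and from -0.056 to 0.0019 for Csk, and the CD69-activated minus CD69-/- difference of Malt1 from -0.020 to 0.016.

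No pairing of the samples by replicate number was seen. Deviations of same-numbered arrays correlated between -0.242 and 0.142, and 1 of 9 arrays correlated best with its own number. With so few arrays a group, these correlations cannot decide whether the numbers pair the samples. With the replicate number as a block, limma called 28 members higher and 0 lower in CD69-/- (1 lower at an unadjusted p under 0.05), 7 and 7 after CD69 activation, and 2 and 28 in CD69-activated against CD69-/- cells.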
